A study of Mus musculus with 10 samples.

Results

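Livers of mice with the doxycycline-inducible hairpin shRNA 2 against Sod2 were compared with livers of mice that carried rtTA alone. The comparison took 7 of the 10 arrays of the series by their sample titles, 3 of shRNA 2 and 4 of the controls, and covered the 13308 genes bright enough to be tested among 22180 genes with a single symbol on the array. The control genotype was Rosa26-rtTA and the hairpin genotype was Rosa26-rtTA + SOD2 shRNA 2, and the remaining 3 arrays were of Rosa26-rtTA + SOD2 shRNA 1. All groups shared the rtTA transgene at the Rosa26 locus, the sex (male), the age at collection (4 weeks) and the doxycycline chow of the dams (625 mg/kg), given so that the hairpin was on from day 0 to day 12.5 in utero. RNA came from 25 mg of liver per sample and was hybridised to a whole-transcript Affymetrix mouse array.

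By the series' design text, 3 controls were littermates of the shRNA 2 mice and 1 was a littermate of the shRNA 1 mice, and no label tells which. Hairpin and cohort therefore cannot be told apart across the lines. No label states that the numbered livers are of different animals, and the p-values speak only of the spread among these arrays.

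Sod2 encodes manganese superoxide dismutase, the mitochondrial matrix enzyme that turns superoxide from the respiratory chain into hydrogen peroxide. The liver carries out lipid, glucose and bile acid metabolism and makes most plasma proteins, and many of its genes follow the circadian clock or the sex-specific pattern of growth hormone secretion. The rtTA protein activates its target promoter in the presence of doxycycline, so the hairpin was switched on before birth, and the livers were taken after the chow had been withdrawn.

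The 7 arrays had medians between log2 4.06 and 4.17 and correlated with each other at 0.981 to 0.991 across genes. With 3 and 4 arrays in the groups, precision is limited by their number. The liver label was checked with hepatocyte markers. Alb, the serum albumin gene, was at a control mean of log2 13.75, Ttr, which encodes a thyroid hormone carrier, at 13.40 and Apoa1, which encodes the main protein of high-density lipoprotein, at 12.22. Of 13 hepatocyte markers tested, 4 were above and 9 below the controls, with a median of -0.01, and none passed an adjusted p of 0.05. Because the tissue was bulk, fewer cells of a type and less RNA per cell cannot be told apart. Replicate 3 of shRNA 2 stood apart from its group, with 35 genes at least 1 log2 unit above both other shRNA 2 arrays and 34 at least 1 below them. The corresponding counts were 2 and 8 for replicate 1 and 3 and 6 for replicate 2. Among the controls replicate 4 had the most such genes above its group, 16, with 3 below. Where leaving out replicate 3 moved a named value by more than 1.5 times, the value without it or the readings of the shRNA 2 arrays are given.

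Sod2 itself was examined first. The control arrays read 10.38, 10.49, 10.33 and 10.33 and the shRNA 2 arrays 10.34, 10.47 and 10.24 on the log2 scale. The groups overlapped, and shRNA 2 replicate 3 was the lowest of the 7. The difference of shRNA 2 from control was -0.03 with a standard error of 0.09 and a 95% interval of -0.23 to 0.16 (limma, adjusted p = 0.961). An exact two-sided permutation test over the 35 splits of 3 against 4 arrays gave p = 0.686, the smallest possible p being 0.0286. The arrays were taken after the knockdown window and hold no measure of the knockdown in utero.

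At 4 weeks a single gene separated the shRNA 2 livers from the controls at an adjusted p of 0.05. This was Ctse, the gene of cathepsin E, and it rose, with a ratio of 4.92 on the deposited scale. It made up 0.00751% of the 13308 genes tested, and 0 genes passed in the lower direction. At an unadjusted p of 0.05, 551 genes (4.14%) were higher and 460 (3.46%) were lower, together 7.60%. That split shifted with the scaling of the arrays: it was 678 higher and 368 lower after quantile normalization and 714 higher and 266 lower after each array was centred on its median. The median difference over all genes was 0.00387, 0.0205 and 0.0397 under the same 3 scalings. All 3 shRNA 2 arrays lay above all 4 controls for 516 genes (3.88%) and below them for 454 (3.41%). Only 17 genes (0.128%) differed by at least 1 log2 unit.

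**Figure D1:**
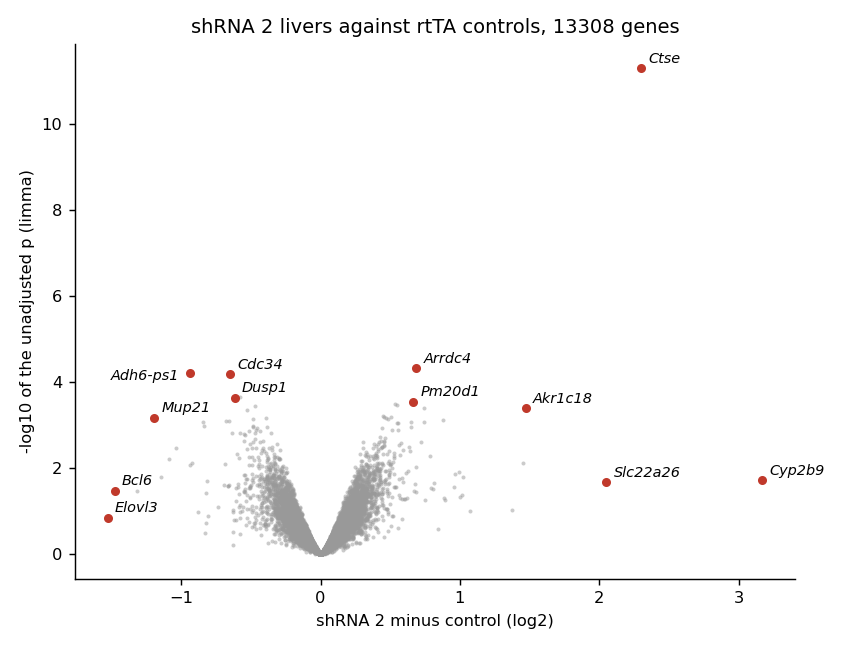
Each point is 1 of 13308 genes. The horizontal axis gives the shRNA 2 minus control difference (log2) and the vertical axis the -log10 of the unadjusted p from limma. Ctse, at 2.30, stands above every other gene in p, while Cyp2b9 (3.17) has the largest difference with a much weaker p.

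Ctse encodes an intracellular aspartic protease known from gastric mucosa and immune cells. The control arrays read 3.90, 4.03, 4.03 and 3.92. The shRNA 2 arrays read 6.33, 6.24 and 6.24. The groups were far apart, with each group's values close together. The difference was 2.30 with a standard error of 0.08 (limma, adjusted p = 6.68e-08; exact permutation p = 0.0286, the smallest possible). The control mean of 3.97 lies just under the level filter of 3.98, so Ctse was tested because of the shRNA 2 arrays. It also lies under the arrays' medians, and the values used here carry no detection call, so the 4.92-fold ratio is a lower bound if Ctse was at background in the controls. With no filter it still passed (adjusted p = 5.79e-08), and a filter at the 60th percentile left it untested. With every single array left out in turn, the difference stayed between 2.27 and 2.32.

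The shRNA 1 arrays read 3.89, 3.92 and 3.79 for Ctse, beside the controls. A direct comparison of the hairpin lines gave 2.40 (adjusted p = 8.72e-08). Of 22 proteases of the aspartic, cysteine and lysosomal group that were tested, Ctse was the single call. Ctso, which encodes the cysteine protease cathepsin O, was at 0.35 (unadjusted p = 0.0233, adjusted p = 0.621), or 0.21 without shRNA 2 replicate 2. The list's median was 0.08, with 18 of 22 members above 0, beside 51.2% of all genes. Ctse is also a marker of gallbladder and gastric mucous epithelium, and the other 6 tested genes of that list ranged from Tff1, a trefoil peptide, at -0.44 (unadjusted p = 0.0435; -0.27 without control replicate 2) to Tff3 at 0.09. Of those 6, 5 were below 0. Only 7 of 13 measured genes of that list were tested, and its median changed sign in at least 1 alternative, so the list carries no direction. None of 4 tested genes of the exocrine pancreas passed either, the highest being Clps, the colipase gene, at 0.11.

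The genes beside Ctse on chromosome 1 were described in their chromosomal order, taken from the RefSeq gene table. Pm20d1, the next tested gene, encodes a secreted enzyme that joins fatty acids to amino acids. Its control arrays read 8.53, 8.92, 8.69 and 8.35 and its shRNA 2 arrays 9.36, 9.32 and 9.18. The groups did not overlap, and the difference was 0.67 with a standard error of 0.13 (unadjusted p = 0.000282, adjusted p = 0.407). The shRNA 1 arrays, at 8.81, 8.76 and 9.01, lay between the groups in mean. Rassf5, a Ras-binding adaptor gene 3 places to the other side, was at 0.32 (unadjusted p = 0.0350), with all 3 shRNA 2 arrays above all controls.

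The genes between and beyond them were close to the controls. Ikbke, an innate immune kinase gene, was at 0.10, Srgap2, a regulator of cell shape, at 0.06, Slc41a1, a magnesium transporter gene, at -0.02 and Rab29, a small GTPase gene, at 0.08. None of these 4 had an adjusted p below 0.927, and each changed sign in at least 1 alternative. Farther along, Slc45a3 was at -0.55 (unadjusted p = 0.0141), with shRNA 2 replicate 3 the lowest array at 5.94. The other shRNA 2 arrays, at 6.69 and 6.75, lay just above the lowest control, at 6.66. Over the whole of chromosome 1, 19 of 757 tested genes (2.51%) had an unadjusted p under 0.01, 11 higher and 8 lower, beside 200 of 13308 (1.5%) over all chromosomes. Chromosome 4 stood at 2.25%, chromosome 5 at 2.21% and chromosome 10 at 2.19%.

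**Figure D2:**
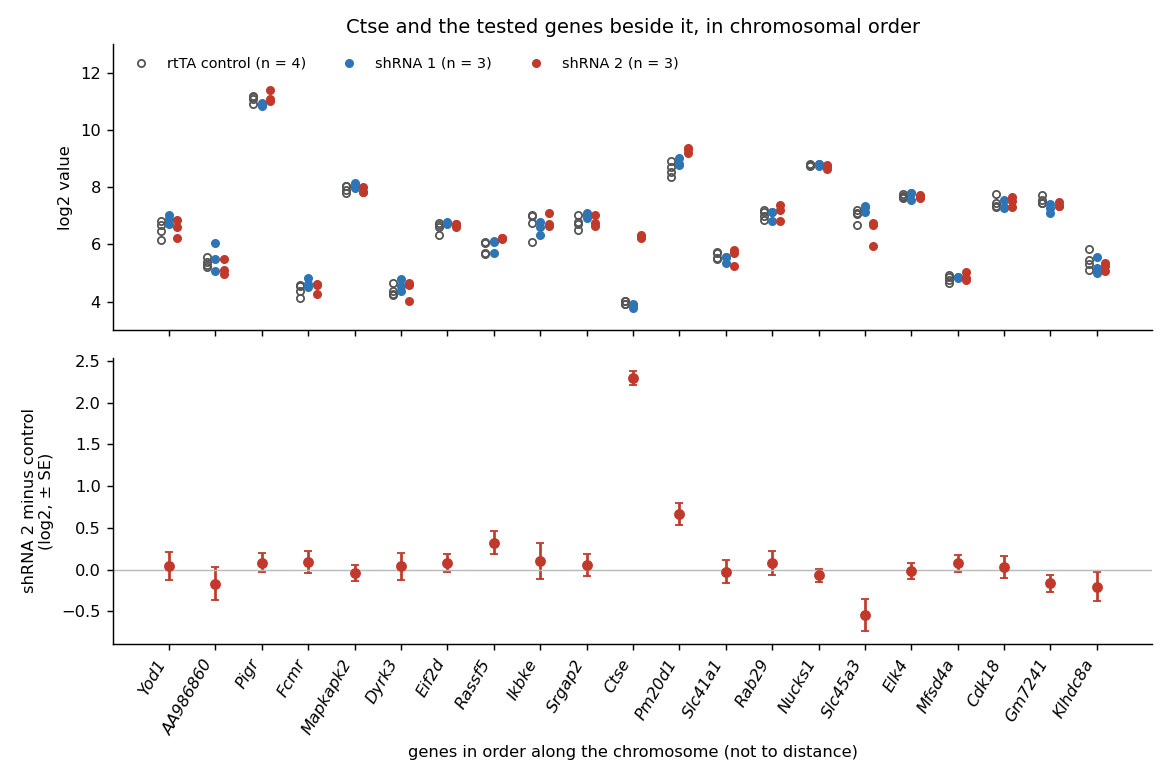
The upper panel gives the log2 value of Ctse and of the 10 tested genes on each side of it in every array, in chromosomal order and not to distance. The lower panel gives the shRNA 2 minus control difference with its standard error: Ctse is at 2.30, Pm20d1 at 0.67, Rassf5 at 0.32 and Slc45a3 at -0.55.

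The other genes that head the ranking did not pass, and since they were ranked by p their separation from the controls is a description. On the higher side 11 such genes lay between 0.45 and 1.47 with adjusted p from 0.215 to 0.407. Arrdc4, an arrestin-domain gene related to Txnip and known to respond to glucose, was nearest after Ctse. It read 7.31, 7.09, 7.30 and 7.08 in controls and 7.85, 7.79 and 8.01 in shRNA 2. The groups did not overlap, and the difference was 0.69 with a standard error of 0.11 (limma, adjusted p = 0.215). The shRNA 1 arrays, at 7.29, 7.51 and 7.61, overlapped the controls.

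Akr1c18 encodes the steroid dehydrogenase that inactivates progesterone. Its controls read 4.48, 4.36, 4.95 and 5.82 and its shRNA 2 arrays 6.03, 6.38 and 6.71. All shRNA 2 values were higher, though control replicate 4 came close to them. The difference was 1.47 (standard error 0.30, adjusted p = 0.407). Without control replicate 4 it was 1.78 and passed (adjusted p = 0.0336). In shRNA 1 the same gene read 6.33, 6.18 and 5.77.

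Alg6, an enzyme gene of N-glycan assembly in the endoplasmic reticulum, was at 0.88. Pde7b, which encodes a phosphodiesterase that breaks down cAMP, was at 0.53 and Tmem163, a zinc transporter gene on chromosome 1, at 0.55. Retreg1, whose product guides endoplasmic reticulum into autophagy, was at 0.50. Slc25a4, which encodes the mitochondrial carrier that exchanges ADP for ATP, was at 0.48. Pstpip2, an adaptor gene of myeloid cells, was at 0.47, Bank1, a scaffold gene of B cells, at 0.45 and Frmd4a, an adaptor gene of cell polarity, at 0.45. For each of these 8 genes the shRNA 2 arrays were all above the controls. In shRNA 1, 11 of the 12 genes heading the higher side, all but Ctse, were also above the control mean. Both differences use the same controls and the genes were chosen by p, so a shared sign is partly built in. The same-sign share over all genes was not computed. Retreg1 was at 0.61 and Alg6 at 0.63 in shRNA 1.

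On the lower side the 12 genes lay between -1.19 and -0.39, and none passed (adjusted p from 0.215 to 0.407). Adh6-ps1, an alcohol dehydrogenase pseudogene, read 9.52, 9.85, 10.13 and 10.03 in controls and 9.21, 8.78 and 8.85 in shRNA 2. All 3 shRNA 2 arrays were below all controls, by a mean of -0.94 (standard error 0.15, adjusted p = 0.215). Without control replicate 1, the lowest control, it was -1.06 and passed (adjusted p = 0.0451), as did Wdfy1, an endosomal adaptor gene, which brought the count of calls to 3. The shRNA 1 arrays read 8.80, 9.06 and 9.05 for Adh6-ps1, at the level of the shRNA 2 arrays.

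Cdc34 encodes a ubiquitin-conjugating enzyme of the cell cycle and has a near-identical relative in the mouse genome, so its signal may be shared. Its controls read 6.83, 6.84, 6.88 and 6.92 and its shRNA 2 arrays 6.27, 6.14 and 6.25. The spread in both groups was small against the gap, and the difference was -0.65 (standard error 0.11, adjusted p = 0.215). U2af1, a gene of 3′ splice site recognition, was at -0.58. Gigyf1, a gene of translational repression, was at -0.47, Dok1, a signalling adaptor gene, at -0.49 and Ak1, which encodes a cytosolic adenylate kinase, at -0.39. Etfbkmt, which encodes a methyltransferase of the mitochondrial electron transfer flavoprotein, was at -0.84. Mup21, a major urinary protein gene, was at -1.19, Wdfy1 at -0.66, the vault RNA gene Vaultrc5 at -0.68 and the zinc finger gene Rbak at -0.53. In shRNA 1, 11 of the 12 genes heading the lower side, all but Dusp1, were also below the control mean. Mup21 was at -1.32 there and Wdfy1 at -0.70. The controls are again shared, so this count too is only a description.

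Dusp1 encodes a nuclear phosphatase that switches off MAP kinases and is itself an immediate early gene. Its controls read 8.10, 7.96, 8.04 and 8.37 and its shRNA 2 arrays 7.57, 7.54 and 7.40. The groups did not overlap, but the difference of -0.62 (standard error 0.12) missed the threshold (adjusted p = 0.407). The shRNA 1 arrays read 8.67, 8.37 and 8.43, so that the hairpin lines lay on opposite sides of the control mean.

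**Figure D3:**
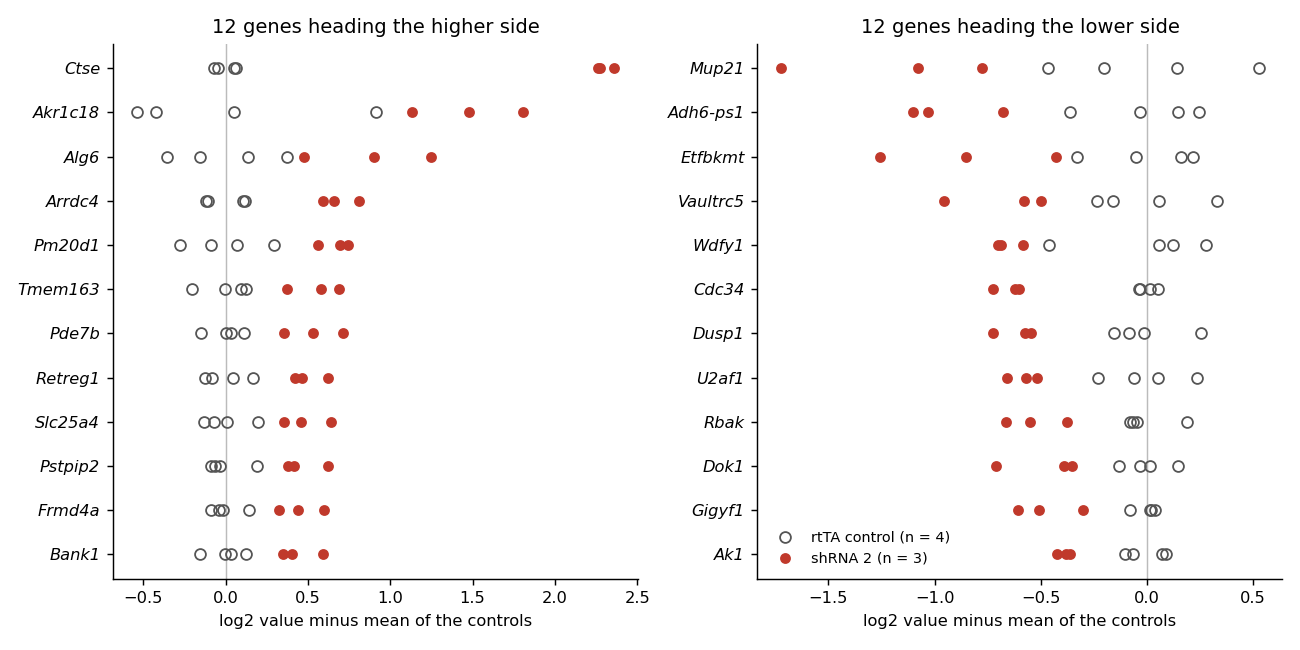
Each row is a gene that heads the higher or the lower side of the ranking, and each point is 1 array, as its log2 value minus the mean of the 4 controls. Open points are controls (n = 4) and filled points shRNA 2 (n = 3): the groups do not overlap in any of the 24 genes, which were chosen by p, and Ctse alone is set off by more than 2 units.

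The promoters of Arrdc4 and Dusp1 are shown because these genes are among the 12 heading each side and belong to well-known responses. The first responds to glucose through CACGTG-type elements and the second to cAMP and growth signals through elements with the core TGACGT. They were not chosen by rank alone, and no promoter window was available for Ctse. Each sequence is the RefSeq window (assembly GRCm38.p6) from 250 bases before the start site to 50 after it, 5′ to 3′ on the minus strand. Dusp1 lies at chr17:26508423-26508722 and Arrdc4 at chr7:68749189-68749488. Capitals mark each match to CACGTG or TGACGT on either strand.
Arrdc4: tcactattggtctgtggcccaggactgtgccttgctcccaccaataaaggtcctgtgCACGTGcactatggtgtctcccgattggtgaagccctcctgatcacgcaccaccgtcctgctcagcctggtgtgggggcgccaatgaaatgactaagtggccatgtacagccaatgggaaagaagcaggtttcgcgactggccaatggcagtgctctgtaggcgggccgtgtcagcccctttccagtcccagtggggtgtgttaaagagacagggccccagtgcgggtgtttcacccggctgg
Dusp1: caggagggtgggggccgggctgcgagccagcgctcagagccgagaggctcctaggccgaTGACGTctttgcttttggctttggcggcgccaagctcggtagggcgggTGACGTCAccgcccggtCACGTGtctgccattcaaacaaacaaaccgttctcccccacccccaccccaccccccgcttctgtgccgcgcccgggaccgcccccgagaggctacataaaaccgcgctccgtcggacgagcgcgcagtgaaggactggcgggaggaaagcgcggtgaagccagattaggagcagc
With positions counted from the start site, Arrdc4 held 1 CACGTG match, at -193, and no TGACGT. Dusp1 held 1 CACGTG match, at -126, and 3 TGACGT matches, at -191, -143 and -141. The last 2 of these lie on opposite strands and overlap. Among 32851 promoters of the same 300 bases, 7.15% held CACGTG and 7.51% held TGACGT. These matches describe the letters only, and the arrays do not measure binding.

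Gene lists of liver functions were then described by their counts and medians. No list held a call other than Ctse, so the members named in them had values whose adjusted p was above 0.05. Over all genes tested, 51.2% were above 0, with a median of 0.00387. Of 41 lists, 18 kept the sign of their median in every alternative and 23 changed it in at least 1. For the latter the counts above or below 0 are a description and carry no direction.

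Fatty acid and sterol synthesis genes were mostly above the controls. In the list of lipogenic targets of SREBP-1c and ChREBP, 19 of 22 members were above 0 with a median of 0.16, 6 higher and 1 lower at an unadjusted p of 0.05. Acly, which makes cytosolic acetyl-CoA from citrate, read 10.19, 10.03, 10.20 and 9.76 in controls and 10.44, 10.47 and 10.35 in shRNA 2. The groups were apart, by 0.38 (standard error 0.12, adjusted p = 0.620). Fasn, the fatty acid synthase gene, was also at 0.38, the acetyl-CoA synthetase gene Acss2 at 0.26 and Elovl6, a fatty acid elongase gene, at 0.46. Elovl6 was at 0.27 without shRNA 2 replicate 2 and 0.69 without replicate 3. In shRNA 1 Acly, Fasn, Acss2 and Elovl6 were at 0.78, 0.73, 0.76 and 0.77 against the same controls. All 4 were lower in shRNA 2 than in shRNA 1, by -0.40, -0.35, -0.50 and -0.30. None of these differences passed an adjusted p of 0.05, though Acss2 had an unadjusted p of 0.000362 (limma, adjusted p = 0.255). Missing the threshold does not show that the lines were alike.

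Of 19 genes of cholesterol synthesis and SREBP2 control, 18 were above 0 with a median of 0.20, and 6 were higher at an unadjusted p of 0.05. Lss, which closes the sterol ring, was at 0.49, with the lowest shRNA 2 array, at 7.78, under the highest control, at 7.93 (adjusted p = 0.621), and at 0.31 without control replicate 4. Fdft1, the squalene synthase gene, and Nsdhl, a sterol dehydrogenase gene, were each at 0.40 (Nsdhl 0.25 without shRNA 2 replicate 2), and Dhcr7, of the last step of the pathway, at 0.26. Relative to the controls' mean, the list mean was -0.13, 0.14, 0.20 and -0.21 in the controls and 0.18, 0.29 and 0.17 in shRNA 2. The groups overlapped, with control replicates 1 and 4 low, and the list median was 0.13 without control replicate 1. The sterol exporter genes Abcg5 and Abcg8, which work as a pair, were at 0.43 and 0.51, each with all shRNA 2 arrays above all controls (adjusted p = 0.548 and 0.620).

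In gluconeogenesis and glycogen metabolism, 11 of 19 members were above 0 and the median was 0.04. Gys2, the liver glycogen synthase gene, read 10.85, 10.40, 10.38 and 10.52 in controls and 10.95, 10.94 and 11.19 in shRNA 2. The groups were apart, by 0.49 (adjusted p = 0.620). Got1, which encodes the cytosolic aspartate aminotransferase, was at 0.43 and Ugp2, which makes UDP-glucose, at 0.24. Foxo1, the insulin-restrained transcription factor of gluconeogenesis, was at -0.28.

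**Figure D4:**
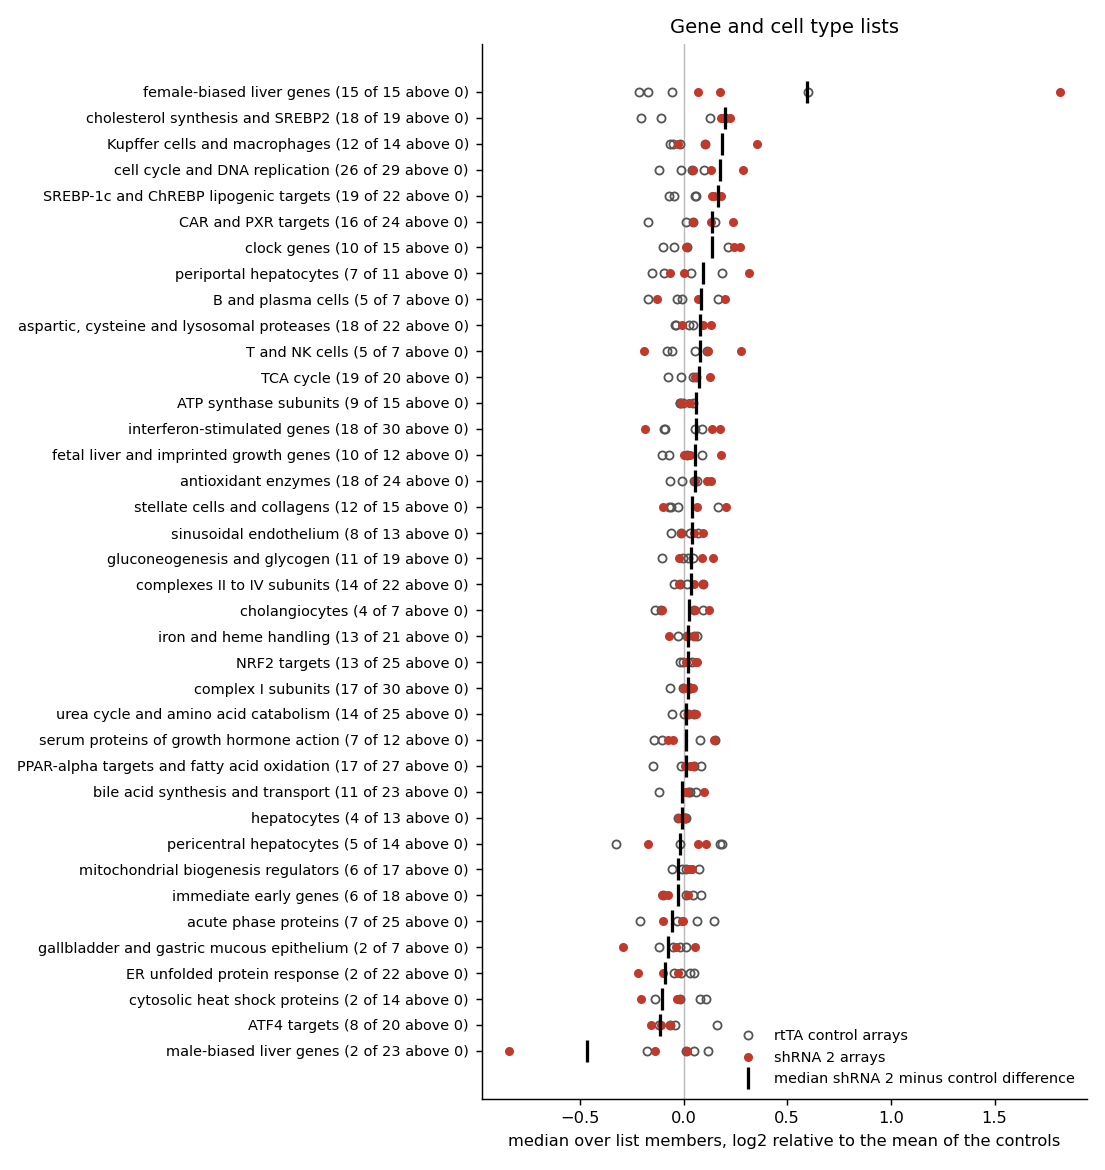
Each row is a list with at least 7 tested members. Points are the medians over list members for each control (open) and shRNA 2 (filled) array, relative to the mean of the controls (log2), and the bar is the median shRNA 2 minus control difference. Most bars lie within 0.2 of 0, while the sex-biased lists (0.60 and -0.47) are spread by a single filled point each, shRNA 2 replicate 3.

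Genes of mitochondrial function differed little. In the TCA cycle 19 of 20 members were above 0, with a median of 0.07 and a range of -0.09 to 0.21. Idh3g, a subunit gene of isocitrate dehydrogenase, was at 0.19 and was the single member at an unadjusted p of 0.05. Complex I subunits had a median of 0.02 over 30 members and complexes II to IV 0.03 over 22. Ndufv3, of complex I, was at 0.21 (unadjusted p = 0.0450).

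Among 15 ATP synthase genes, 9 were above 0. Atp5g1, a gene of the membrane ring, read 5.83, 5.58, 5.94 and 5.61 in controls and 5.25, 5.19 and 5.40 in shRNA 2. All shRNA 2 arrays were below all controls, by -0.46 (standard error 0.11, adjusted p = 0.435). Atp5o, of the stalk, was at -0.27, and Atpif1, which encodes the inhibitor of the enzyme, at 0.25. Ppargc1a, the coactivator PGC-1alpha of mitochondrial biogenesis, was at 0.34 in shRNA 2, or 0.17 without replicate 3, and 0.84 in shRNA 1, and Nrf1, a transcription factor of the same program, was at -0.22 in shRNA 2, or -0.14 without replicate 1.

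The antioxidant enzymes, which remove superoxide and peroxide, had a median of 0.05, with 18 of 24 members above 0. The other superoxide dismutase genes were near the controls, Sod1 of the cytosol at -0.02 and Sod3, which is secreted, at 0.05. Catalase (Cat) was at 0.05 and Gpx1, the main glutathione peroxidase gene, at 0.00 to 2 decimals. Prdx3, the peroxiredoxin of mitochondria, was at 0.27 (unadjusted p = 0.0348) and Glrx, a glutaredoxin gene, at 0.38 (unadjusted p = 0.0128).

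Targets of NRF2, the transcription factor of the oxidant response, had a median of 0.02 in shRNA 2 and 0.36 in shRNA 1. Of 25 members, 13 were above 0. Nqo1, a quinone reductase gene, read 5.51, 5.64, 5.28 and 4.86 in controls and 5.42, 5.83 and 6.19 in shRNA 2. The groups overlapped, with a difference of 0.49 (adjusted p = 0.631), or 0.30 without shRNA 2 replicate 3. Pgd, of the pentose phosphate pathway, was at 0.36, and Aox1, an aldehyde oxidase gene, was at -0.53 with all shRNA 2 arrays below all controls (adjusted p = 0.564). Hmox1, the heme oxygenase gene, was at -0.05 and Gclc, of glutathione synthesis, at -0.08.

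Of 22 unfolded protein response genes, which handle misfolded protein in the endoplasmic reticulum, 20 were below 0 with a median of -0.09 (-0.16 without shRNA 2 replicate 2), and 3 were lower at an unadjusted p of 0.05. Syvn1, a ubiquitin ligase gene of that pathway, read 7.25, 7.46, 7.55 and 7.46 in controls and 7.24, 6.76 and 6.78 in shRNA 2. Replicate 1 lay just under the lowest control, and the difference was -0.51 (adjusted p = 0.552). Dnajb9, a chaperone partner gene, was at -0.41 and Herpud1, of the degradation complex, at -0.28 (-0.18 without shRNA 2 replicate 3).

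Of 20 targets of ATF4, the amino acid and mitochondrial stress factor, 12 were below 0 with a median of -0.12 (-0.04 without control replicate 4 and -0.25 without shRNA 2 replicate 2), 4 at an unadjusted p of 0.05. Mthfd2, a mitochondrial folate enzyme gene often raised in mitochondrial stress, was at -0.66, with controls spread from 4.54 to 5.85, or -0.41 without control replicate 4. Nupr1, a stress-response regulator gene, was at -0.50, and Atf5 and Cebpb, both transcription factors, were each at -0.44. Of 14 cytosolic heat shock genes 12 were below 0, though the median of that list changed sign in at least 1 alternative. Hspa1b, an inducible chaperone gene, read 6.95, 7.58, 7.60 and 8.13 in controls and 6.98, 7.03 and 5.87 in shRNA 2. The groups overlapped, and the difference was -0.94 (adjusted p = 0.620), or -0.56 without shRNA 2 replicate 3.

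Immediate early genes, which respond within minutes to growth factors and stress, included Dusp1 and had a median of -0.03 over 18 members. Btg2, an antiproliferative gene, read 6.18, 6.28, 6.09 and 5.91 in controls and 5.48, 5.30 and 5.92 in shRNA 2. Replicate 3 lay just above the lowest control, and the difference was -0.55 (adjusted p = 0.548). Egr1 was at -0.47 (unadjusted p = 0.187) and Fos at -0.01.

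Many of the large differences were in sex-biased genes and moved with single arrays. Of 22 measured female-biased genes, 15 passed the level filter, with a median of 0.60 and a range of 0.02 to 3.17. The filter takes the mean over all arrays, so a gene low in controls, such as Slc22a27 with a control mean of 3.23, was tested only through the hairpin arrays, and the signs of these 15 are a description. The 7 below the filter ranged from -0.08 for Sult3a2 to 1.06 for Sult2a1, both sulfotransferase genes. Sult2a1 read 2.21, 2.18 and 5.55 in shRNA 2 against a control mean of 2.26, so its difference came from replicate 3 alone. Of 23 male-biased genes 21 were below 0, with a median of -0.47. No member of either list passed. Without shRNA 2 replicate 3 the medians were 0.22 and -0.02. The mean of the female-biased list, relative to the controls, was 0.26, 0.48 and 1.87 in the 3 shRNA 2 arrays and -0.23, -0.11, -0.31 and 0.65 in the 4 controls. The male-biased list gave -0.04, -0.16 and -1.17 in shRNA 2 and -0.0017, 0.17, 0.20 and -0.37 in controls. Replicate 3 of shRNA 2 was thus the extreme array in both lists, and control replicate 4 lay on the same side. So did all 3 shRNA 1 arrays. They were at 0.99, 1.09 and 0.97 in the female-biased list and at -0.62, -0.38 and -0.44 in the male-biased list. The samples are labelled male.

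Cyp2b9, a female-biased cytochrome P450 gene, read 4.01, 5.95, 3.64 and 9.35 in controls and 6.90, 9.36 and 10.45 in shRNA 2. Control replicate 4 was as high as shRNA 2 replicate 2. The difference of 3.17 was the largest of all genes tested, but its standard error was 1.17 (adjusted p = 0.621). It was 4.37 without control replicate 4 and 2.39 without shRNA 2 replicate 3, and the 3 shRNA 1 arrays read 10.14, 9.97 and 9.80. Slc22a26, an organic anion transporter gene, was at 2.05, or 1.10 without shRNA 2 replicate 3. Hao2, a peroxisomal hydroxyacid oxidase gene, was at 1.37, or 0.36 without that array. Abcd2, a peroxisomal fatty acid transporter gene, was at 0.96, or 0.54 without it.

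Elovl3, a male-biased fatty acid elongase gene, read 10.83, 12.25, 12.53 and 10.75 in controls and 11.26, 12.09 and 6.84 in shRNA 2. Replicates 1 and 2 were within the range of the controls, and replicate 3 was far below it. The difference of -1.53 (adjusted p = 0.776) became 0.08 without that array. Bcl6, a transcriptional repressor gene higher in male liver, read 7.75, 8.42, 7.33 and 5.76 in controls and 5.31, 6.88 and 5.32 in shRNA 2, a difference of -1.48 (adjusted p = 0.630). Mup20, a pheromone-carrying urinary protein gene, was at -0.51, and Nudt7, a peroxisomal coenzyme A hydrolase gene, at -0.48. Members of the Mup and Cyp2b families are near-identical in sequence, so their signals may be shared.

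**Figure D5:**
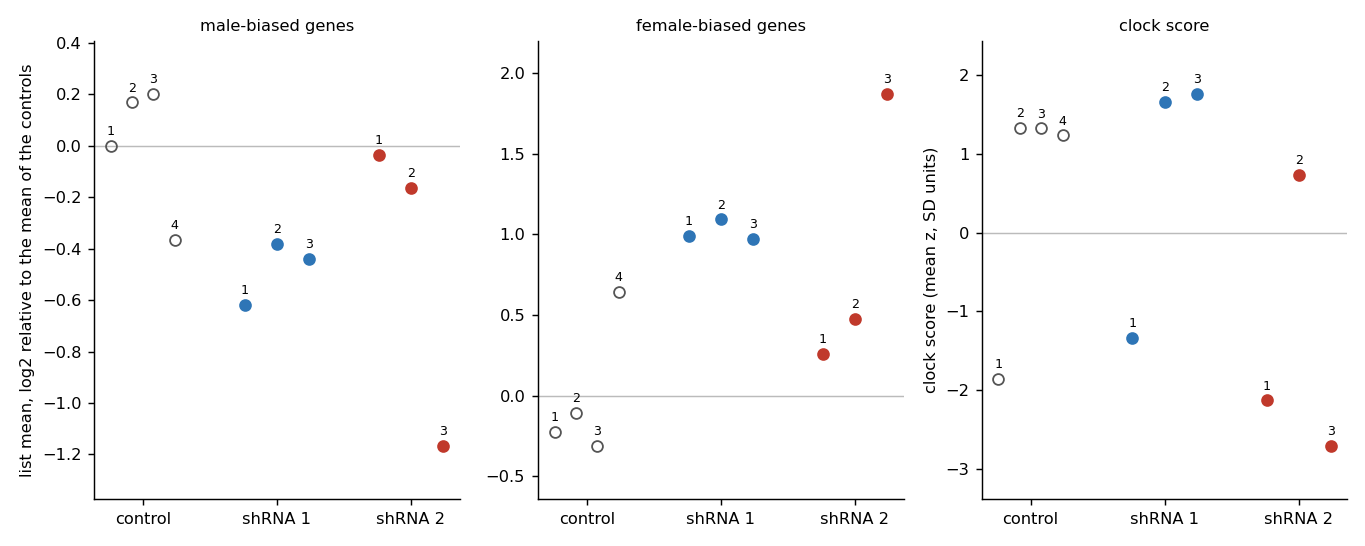
Points are arrays, numbered by replicate, in the control (n = 4), shRNA 1 (n = 3) and shRNA 2 (n = 3) groups. The left and middle panels give the mean of the male-biased and the female-biased genes relative to the controls (log2), and the right panel a clock score in SD units. Replicate 3 of shRNA 2 is the lowest for male-biased genes (-1.17), the highest for female-biased genes (1.87) and the lowest in clock score (-2.71).

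Clock genes drive daily rhythms, and Arntl and Clock peak in opposite phase to Dbp and the Per genes. A clock score was formed for each array as the mean standardised level of 4 genes of the Arntl phase minus that of 7 genes of the Dbp phase. It was -1.85, 1.33, 1.32 and 1.23 in the controls and -2.13, 0.73 and -2.71 in shRNA 2. Thus 2 of 3 shRNA 2 arrays but 1 of 4 controls had a negative score. No label gives the hour of collection, and its part in the differences was not tested.

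Dbp, a clock output transcription factor gene, read 8.71, 6.85, 7.38 and 7.27 in controls and 8.84, 7.74 and 9.09 in shRNA 2. Control replicate 1 was at the level of the high shRNA 2 arrays. The difference was 1.00 (adjusted p = 0.652), and 0.20 with the clock score as a covariate. Dbp, Arntl and Nfil3 are themselves part of that score, so a smaller difference with it follows from its construction. Arntl, the core activator, read 6.15, 7.66, 7.66 and 7.50 in controls and 6.29, 7.58 and 5.44 in shRNA 2, a difference of -0.81, or 0.07 with the covariate and -0.31 without shRNA 2 replicate 3. Nfil3, a repressor of the Dbp targets, was at -0.66, or -0.25 with it. Wee1, a clock-controlled kinase gene of the cell cycle, was at 1.02, or 0.43 with it and 0.60 without shRNA 2 replicate 3. Ctse was at 2.30 with and without that covariate.

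Other genes that differed by at least 1 log2 unit were given after their values were seen. Rgs16, a regulator of G protein signalling that responds to feeding in liver, read 9.78, 9.21, 7.65 and 8.64 in controls and 10.51, 10.27 and 10.04 in shRNA 2. The groups did not overlap, and the difference was 1.46 (standard error 0.45, adjusted p = 0.620). Zbtb16, a transcription factor gene induced by glucocorticoids, was at -1.14, or -0.48 without shRNA 2 replicate 3. Serpina4-ps1, a serpin pseudogene, was at -1.32, or -0.51 without that array, and Atp6v0d2, a proton pump subunit gene, at 1.01, or 0.30. Slc22a27, a female-biased transporter gene, was at 1.07, or 0.25 without it. The predicted gene Gm4956 was at -1.09, with all shRNA 2 arrays below all controls.

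Genes of drug metabolism under CAR and PXR, the nuclear receptors for foreign compounds, had a median of 0.14 (0.09 without control replicate 1 and 0.27 without shRNA 2 replicate 2), with 16 of 24 members above 0 and 7 higher at an unadjusted p of 0.05. Gstt1, a theta-class glutathione transferase gene, read 9.21, 9.54, 9.49 and 9.39 in controls and 9.93, 9.68 and 9.81 in shRNA 2. All shRNA 2 arrays were above all controls, by 0.40 (adjusted p = 0.604). Its relative Gstt3 was at 0.62 (0.41 without shRNA 2 replicate 3) and Cyp2c54, a cytochrome P450 gene, at 0.41. The shRNA 1 values of Gstt1 and Gstt3 were 0.75 and 1.22.

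Cell cycle and DNA replication genes were above 0 in 26 of 29 cases, with a median of 0.18, or 0.12 without shRNA 2 replicate 3 and 0.08 without control replicate 4. Relative to the controls the list means were 0.0034, 0.13 and 0.30 in shRNA 2. They were 0.0052, 0.13, -0.0010 and -0.13 in the controls, so the groups overlapped. Ccna2, the cyclin of DNA synthesis and mitotic entry, read 6.03, 6.15, 5.94 and 5.95 in controls and 6.08, 6.33 and 6.89 in shRNA 2. Replicate 3 was the highest, and the difference of 0.42 became 0.19 without it. Mcm5, of the replicative helicase, was at 0.42, Bub1b, of the spindle checkpoint, at 0.34 and Tyms, the thymidylate synthase gene, at 0.31. Afp, the fetal serum protein gene, was at 0.41 with all shRNA 2 arrays above all controls (adjusted p = 0.620), while the list of fetal and imprinted growth genes had a median of 0.06 over 12 members.

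The lists of acute phase plasma proteins and of bile acid genes had medians near 0. Bile acid synthesis and transport genes had a median of -0.01 over 23 members, with a range of -0.61 to 0.51. Abcg5 and Abcg8, named above, were its 2 members at an unadjusted p of 0.05. Acute phase genes had a median of -0.05 in shRNA 2 and -0.23 in shRNA 1, and Il1r1, the interleukin-1 receptor gene, was at -0.54, or -0.24 without shRNA 2 replicate 3, the lowest array at 8.06. Targets of PPAR-alpha, the fatty acid oxidation regulator, had a median of 0.01 over 27 members, with 0 at an unadjusted p of 0.05 by limma. Urea cycle and amino acid genes had a median of 0.01 over 25 members, also with 0 at that threshold. Of 30 interferon-stimulated genes 18 were above 0: Ifit3 was at 0.46, Ifit2 at 0.32 (0.14 without shRNA 2 replicate 3), Oasl2 at 0.29 and the transcription factor gene Stat2 at -0.28 (-0.18 without control replicate 4). Among 21 iron and heme genes Slc11a2, the iron importer DMT1, was at -0.36 and Ppox, of heme synthesis, at -0.22.

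Markers of the other cells of the liver were examined in the same fit. Of 14 markers of Kupffer cells and macrophages, the resident phagocytes, 12 were above 0 with a median of 0.19, or 0.11 without shRNA 2 replicate 1. Vsig4, a complement receptor gene of these cells, read 8.74, 8.87, 8.71 and 8.88 in controls and 9.17, 9.13 and 8.97 in shRNA 2. The groups were apart, by 0.29 (adjusted p = 0.620), and Timd4, a receptor gene for dying cells, was at 0.27. The defining marker Clec4f was at 0.06. Relative to the controls the list means were 0.36, 0.16 and -0.01 in shRNA 2 and ranged from -0.07 to 0.11 in the controls, so the groups overlapped.

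Sinusoidal endothelial markers had a median of 0.04 over 13 genes and stellate cell and collagen genes 0.04 over 15. Of 7 T and NK cell genes 5 were above 0, with Cd3g, of the T cell receptor complex, at 0.36, or 0.19 without shRNA 2 replicate 3 and 0.59 without replicate 1. The median of that list, 0.08, ranged from -0.05 to 0.22 with 1 array left out. B and plasma cell genes had a median of 0.09 over 7. Neutrophil markers were mostly below the level filter, with 2 of 11 measured tested, at 0.05 and 0.15. Sox9, a transcription factor gene of bile duct cells, was at -0.34 with all shRNA 2 arrays below all controls, while the other 6 tested bile duct genes lay between -0.16 and 0.32. Car2, a carbonic anhydrase gene of red cells and other tissues, was at 0.57, or 0.40 without control replicate 1, while 3 other erythroid genes were below 0.

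Zonation genes gave no direction. The pericentral list had a median of -0.02 over 14 members and the periportal list 0.09 over 11. Nt5e, which encodes an adenosine-producing surface enzyme, was at 0.57 (unadjusted p = 0.0483; 0.31 without control replicate 1) and Hnf4a, the master transcription factor of hepatocytes, at -0.22 (unadjusted p = 0.0377).

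A direct test of shRNA 2 against shRNA 1 showed where the hairpin lines differed. It called 2 genes (0.0150% of those tested), Ctse and Dusp1, beside 6.02% of genes at an unadjusted p of 0.05. Dusp1 was lower in shRNA 2 than in shRNA 1 by a mean of -0.99 with a standard error of 0.13 (limma, adjusted p = 0.0350), and all 3 shRNA 2 arrays were below all 3 shRNA 1 arrays. Its call was lost when any single array other than control replicate 4 was left out. Its adjusted p was 0.0581 without control replicate 1, 0.139 without shRNA 2 replicate 3, 0.0555 after quantile normalization and 0.115 with the clock score as a covariate.

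Csad, which encodes the enzyme of taurine synthesis, had the largest difference among the other named genes of this test. It read 7.93, 8.67, 8.72 and 9.52 in controls, 9.62, 9.73 and 9.71 in shRNA 1 and 7.31, 7.79 and 7.93 in shRNA 2. The hairpin lines were fully apart, by -2.01 (adjusted p = 0.0821). Against control, shRNA 2 was at -1.03 (limma, unadjusted p = 0.00340, adjusted p = 0.563) and shRNA 1 at 0.98. Only replicate 3 of shRNA 2, level with control replicate 1 at 7.93, was not below all controls. Without control replicate 4 or control replicate 1 the difference between the lines passed (adjusted p = 0.0101 and 0.0142).

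For 3 other genes, unlike Csad, the shRNA 2 mean was close to the control mean. Their shRNA 1 differences from control did not pass (adjusted p = 0.0525 for each). Gstm3, a mu-class glutathione transferase gene, was at 0.07 in shRNA 2 and 1.35 in shRNA 1, a difference between lines of -1.28 (adjusted p = 0.0821). Xdh, the xanthine dehydrogenase gene, was at 0.00 to 2 decimals and 0.64, a difference of -0.64 (adjusted p = 0.0971). Fgl1, a secreted hepatokine gene, was at 0.02 and -0.76, a difference of 0.78 (adjusted p = 0.0821). None of these 3 passed, though each did in some alternative: Gstm3 (adjusted p = 0.0355), Xdh (0.0331) and Fgl1 (0.0204) with an intensity trend and robust prior, Gstm3 (0.0404) and Fgl1 (0.0245) with array weights, and Fgl1 without control replicate 4 (0.0240) or without that array and shRNA 2 replicate 3 (0.0395). Stap1, an adaptor gene of blood cells, was at 0.56 in shRNA 2 and -0.25 in shRNA 1 (adjusted p = 0.168 between lines), and Adamdec1, a metalloprotease gene of macrophages, at 0.34 and -0.28 (adjusted p = 0.233).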

How the data were processed

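RNA of 10 mouse livers was measured on 1-colour arrays. The authors deposited log2 expression per transcript cluster, computed with Affymetrix Expression Console per the submitters' processing notes. Which version, background correction, normalization and build they used is unstated in those notes as seen here, and whatever these steps did to the values remains in every result. The values themselves show the log2 scale, so a planned pseudocount for linear values was not needed.

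The platform annotation gave 1 symbol to 23521 of 41345 clusters, several to 1814 and none to 16010. Entrez identifiers matched 23328 of the first to RefSeq's table for GRCm38.p6, and 0 symbols changed. That table served for names and for the order of genes. Where a gene had more than 1 cluster (1082 genes), the brightest was used, which left 22180 genes. The level filter removed genes whose mean over the arrays was under the 40th percentile (log2 3.98).

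Sample titles set the groups. All 10 arrays entered 1 limma fit (lmFit, contrasts.fit, eBayes; limma 3.58.1 in R 4.3.3), with two-sided p adjusted by Benjamini-Hochberg over 13308 genes, so the shRNA 1 arrays add to the estimate of spread. The scripts were tested on simulated data. The members, lists and tests were chosen with earlier results of these data known. Named were Sod2, the called genes filled to 12 in each direction by unadjusted p (predicted and small noncoding symbols passed over), up to 4 members per list at an unadjusted p of 0.05, 3 neighbours on each side of Ctse, 4 to 6 genes in each direction between the hairpin lines, and clock and sex-biased genes where 1 array stood apart. Other list members, Slc45a3 and the genes of at least 1 log2 unit were chosen after their values were seen. The clock score used 11 of 12 genes, since the cluster of Per2 carries a second symbol. Alternatives changed the scaling, the level filter, the cluster rule, the threshold, the arrays left out and the fit (replicate block, array weights, trend with robust prior, only the 7 arrays, clock covariate). Python 3.11.15 and matplotlib 3.10.9 made the figures.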

Additional observations from a re-analysis of the deposited data

Results flagged for a closer look

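Ctse and Dusp1 differed between the hairpin lines in the test of that difference. Ctse was higher in shRNA 2 than in shRNA 1 by 2.40 on the log2 scale, and Dusp1 differed by -0.99.

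In all, 159 groups of 4 controls were looked at for a sample far from the others, and 6 held one, each in a named gene. Chance gives about 1 in 20 such groups. Control replicate 1 was low in 4 genes: Acss2 at 9.48 against 9.74 to 9.78 in the other controls, Car2 at 6.54 against 7.18 to 7.21, Zbtb16 at 8.23 against 8.93 to 9.06 and Arntl at 6.15 against 7.50 to 7.66. Control replicate 4 was low in Mup20, at 11.90 against 12.33 to 12.37. Control replicate 3 was high in Rbak, at 4.98 against 4.71 to 4.74.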

How the results depend on the processing

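The count of 1 call against control (Ctse) became 0 with a filter at the 60th percentile, which left Ctse untested, and ranged from 1 to 3 when each array was left out in turn. Without control replicate 1 there were 3 calls (Adh6-ps1 and Wdfy1 added) and without control replicate 4 there were 2 (Akr1c18 added). The count of 2 calls against shRNA 1 was 1 with quantile normalization, the 60th percentile filter or the clock score as covariate. It was 4 with median centring, 4 with the replicate number as a block, 6 with array weights, 7 with an intensity trend and robust prior, 8 at an adjusted p of 0.10, and 5 without shRNA 2 replicate 3 and control replicate 4 together. Leaving out 1 array at a time gave 1 to 4. The fit on 7 arrays cannot give that comparison. Sod2 turned from -0.03 to 0.0019 with median centring and to 0.0044 without those 2 arrays together, and ranged from -0.094 to 0.023 with 1 array left out. Same-numbered control and shRNA 2 arrays correlated at -0.06, 0.27 and -0.25 in their deviations. These values have no common direction, and with so few arrays they cannot tell whether the numbers pair the samples. With the number as a block, Ctse was still the 1 call against control and Sod2 was at -0.05.

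Of 119 values of named genes other than Sod2, 7 changed sign and 7 passed only in some alternative. With 1 array left out, Ikbke ranged from -0.11 to 0.20, Srgap2 from -0.055 to 0.14, Slc41a1 from -0.14 to 0.15, Rab29 from -0.039 to 0.23 and Elovl3 from -2.54 to 0.084. The block, in which control replicate 4 has no partner, gave -0.11 for Ikbke, and leaving out both arrays gave -0.063 for it and 0.10 for Slc41a1. Slc41a1 was at 0.011 with median centring and 0.039 with array weights. The clock covariate turned Srgap2 to -0.0076, Arntl to 0.065 and Npas2 to 0.18. Arntl and Npas2 are themselves part of the clock score. The causes were not tested. Of 41 list medians, 21 moved by more than 1 SD of the controls in at least 1 alternative.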
